A study of Mus musculus with 6 samples.

Results

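Mitochondrial ribosomal proteins build the ribosome inside mitochondria, and the 70 genes described here are those whose symbol starts with Mrpl or Mrps followed by a digit and that had a probe detected on at least 1 array. They are 70 of 8881 tested genes, 45 named for the large subunit (Mrpl) and 25 for the small subunit (Mrps), and all 70 passed the filter on low signals. Detected means a detection p under 0.01. Of the 70, 69 were detected on all 6 arrays, and Mrpl57 was detected on day 14 only. Another 7 subunit genes of the lists used here (Mrpl2, Mrpl32, Mrpl41, Mrpl45, Mrps6, Mrps14 and Mrps22) had no probe with a single gene symbol and were not analysed here, nor was Mrps36.

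The mitochondrial ribosome translates the few messenger RNAs of mitochondrial DNA, which code for core proteins of the respiratory chain and ATP synthase. Its ribosomal RNAs come from mitochondrial DNA, while its proteins are encoded in the nucleus, made in the cytosol and imported. Some of these proteins descend from bacterial ribosomal proteins and others are found only in mitochondria, and in the mammalian structure the products of Mrps18a and Mrps30 sit in the large subunit despite their symbols. Mesenchymal stem cells are generally described as relying more on respiration as they turn into osteoblasts.

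The RNA came from mesenchymal stem cells of dorsal and inguinal fat of C57BL/6 mice, all arrays sharing that strain and source. Cells were grown in medium with 10% serum and then moved, after a night in the dish, to osteogenic medium with 15% serum, dexamethasone (a synthetic glucocorticoid) at 0.1 μM, β-glycerophosphate at 10 mM, ascorbic acid at 50 μM and DMSO at 0.4%. RNA was taken at days 0, 1, 3, 6, 10 and 14, with 1 Illumina bead array at each time, no replicate and no array from cells kept without the medium on later days, so time in the medium and time in culture cannot be told apart. Neither the age and number of the mice nor any pooling is given in the labels.

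The arrays detected from 12891 probes on day 0 to 13980 on day 14, of 46613 in all, and no mitochondrial ribosomal protein gene reached 50% of the highest signal on any array. Of 8 measured stromal stem cell markers 7 or 8 were detected on every array, with summed signals from 69852 to 93904. Within that list Cd44 fell (3.91-fold lower on day 14 than on day 0, adjusted p = 0.0113), as did Thy1 (2.55-fold, 0.0207) and Eng (1.83-fold, 0.0334), Pdgfra rose (3.81-fold higher, 0.00433), and the other 4 did not pass. Of the leukocyte list only 2 of 7 genes had a usable probe (Cd14 and Lyz2), and Ptprc was not analysed here. Their summed signals were 467.9, 590.5, 629.3, 985.6, 871.8 and 843.0 in order of day, with 1 of the 2 detected on days 0 to 3 and both from day 6 on. Cd14 rose (7.78-fold higher on day 14, adjusted p = 0.0108) and Lyz2 did not pass. The 6 measured proliferation markers (Birc5, Plk1, Mcm5, Top2a, Mcm2 and Pcna) had summed signals of 16708, 37323, 13229, 2888, 1748 and 1592 in order of day. The 3 measured adipocyte markers summed to 418.3 on day 0 and 10997 on day 14, with 0 of 3 detected on day 0 and all 3 from day 3 on. Of the osteoblast list only 2 of 6 genes had a usable probe (Sp7 and Alpl). They summed to 1979, 4599, 1679, 574.2, 332.3 and 410.2 in order of day. Both were detected on days 0 to 6, but 0 of 2 on day 10 and 1 of 2 on day 14, so background limits the late sums. The part of these shifts in the results below was not tested, and in a mixed culture fewer cells of a type and less RNA per cell cannot be told apart.

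The promoter sequences of 5 members are shown first. They are the steepest fall of each subunit (Mrpl20 and Mrps25), the single rise (Mrpl24), and Mrpl53 and Mrpl39, which hold a motif. They do not stand for the falling members, or for the members with a motif, as a set. A motif search covered the 250 bases before the start of each gene on both strands (RefSeq, GRCm38.p6), and 61 of the 70 members had a promoter entry, in 65 windows. The letters searched were, for nuclear respiratory factor 1 (NRF1), the palindrome in capitals in the Mrpl39 sequence, CCGGAAG for ETS factors such as GABP, and CACGTG for the E-box, which factors such as MYC bind. These 5 windows, chosen after the values were seen, hold the 150 bases before the start, read towards the gene, with motif matches in capitals.
Mrpl20: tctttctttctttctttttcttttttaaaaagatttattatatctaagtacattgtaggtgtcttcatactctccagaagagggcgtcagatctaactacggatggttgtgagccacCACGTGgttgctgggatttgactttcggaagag
Mrpl53: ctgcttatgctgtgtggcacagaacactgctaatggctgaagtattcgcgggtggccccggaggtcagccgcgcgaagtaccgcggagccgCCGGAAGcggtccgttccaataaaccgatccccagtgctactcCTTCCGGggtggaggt
Mrps25: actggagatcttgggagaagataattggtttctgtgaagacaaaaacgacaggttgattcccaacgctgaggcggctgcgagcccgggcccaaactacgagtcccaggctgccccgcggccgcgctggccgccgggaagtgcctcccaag
Mrpl24: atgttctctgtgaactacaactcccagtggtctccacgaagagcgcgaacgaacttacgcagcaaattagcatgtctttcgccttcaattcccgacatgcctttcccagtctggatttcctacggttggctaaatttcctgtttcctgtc
Mrpl39: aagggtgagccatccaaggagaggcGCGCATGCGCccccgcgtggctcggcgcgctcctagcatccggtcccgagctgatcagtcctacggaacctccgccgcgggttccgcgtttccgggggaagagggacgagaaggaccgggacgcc

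The window of Mrpl20, the steepest fall of the large subunit, lies at chr4:155802728-155802877 (+ strand) and holds an E-box whose first base is at position -33, counted with -1 as the last base before the start. That of Mrpl53 lies at chr6:83108958-83109107 (+ strand) and holds 2 ETS matches, starting at -59 and -16, the only ETS letters among members that fell. Mrps25, the steepest fall of the small subunit, at chr6:92184024-92184173 (- strand), and Mrpl24, the single rise, at chr3:87919394-87919543 (+ strand), hold none of these letters in the 250 bases. Mrpl39, whose level did not pass the trend test, at chr16:84735245-84735394 (- strand), has the NRF1 letters starting at -125. Over all 32851 promoter windows, 6.91% held the ETS letters, 0.782% the NRF1 letters and 6.02% an E-box. These windows belong to 27025 genes, not only to the 8881 tested ones, so this background differs from the one used for levels. Among the 65 windows of members, 17 held the ETS letters (26.2%), 2 the NRF1 letters (3.08%) and 4 an E-box (6.15%). The ETS letters stood in 12 of 42 windows of the large subunit and in 5 of 23 of the small subunit, in 1 of 11 windows of members that fell and in 16 of 53 of members with no call. An E-box stood in 2 of the 11 windows of members that fell, and the NRF1 letters in 0. The motifs do not overlap each other in the windows shown, and a match is a description of letters only.

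Levels of most mitochondrial ribosomal protein genes were highest on day 1 or 3 and lower on day 6 than on day 3, and the medians of both subunits stayed below day 0 to day 14. Levels are normalized log2 intensities of 1 probe a gene, and differences are on that log2 scale. The median member of the large subunit stood at 0.25 on day 1 relative to day 0, then at 0.11, -0.25, -0.28 and -0.20 on days 3, 6, 10 and 14. The median member of the small subunit stood at 0.19, 0.20, -0.27, -0.26 and -0.12 on the same days. In linear terms these medians never left the range from 1.19 times to 0.823 times the day 0 level. Over all tested genes the median stayed between -0.02 and 0.02, and the medians of both subunits lay outside that range on every later day. Under median scaling the all-gene median itself moved by 0.10 to 0.18, and relative to it the small subunit median was 0.24 on day 1 and -0.09 on day 14, while its unadjusted day 14 median was 0.04. Single arrays allow no test between days.

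**Figure D1:**
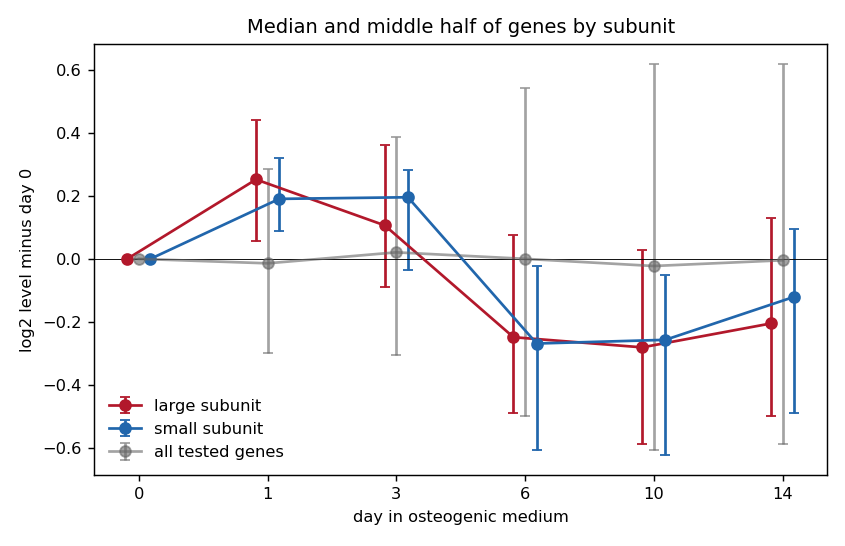
Median log2 level minus day 0 (y axis) by day in osteogenic medium (x axis, sampled days evenly spaced) for 45 large subunit genes, 25 small subunit genes and all 8881 tested genes, each day 1 array. Bars span the middle 50% of genes, not replicates. Both subunits lie above the all-gene line on days 1 and 3 and below it on days 6, 10 and 14.

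The shape was shared by most members. The highest of the 6 levels fell on day 1 in 42 of 70 members and on day 3 in 17, against 84.3% and 37.5% for both days together in members and in all tested genes. Day 6 held the lowest level of 21 members, day 10 that of 30 and day 14 that of 6, together 81.4% of members against 45.2% of all genes. In 40 of 70 members (57.1%; 26 of the large and 14 of the small subunit) all of days 6, 10 and 14 lay below all of days 0, 1 and 3, where 27.6% of all tested genes did so. The opposite order was seen in 2 members, Mrpl24 and Mrpl49, against 27.0% of all genes. These groups of days were set after the values were seen, so the counts carry no test. With median scaling in place of quantile normalization the count was 31 members against 27.0% of all genes.

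**Figure D2:**
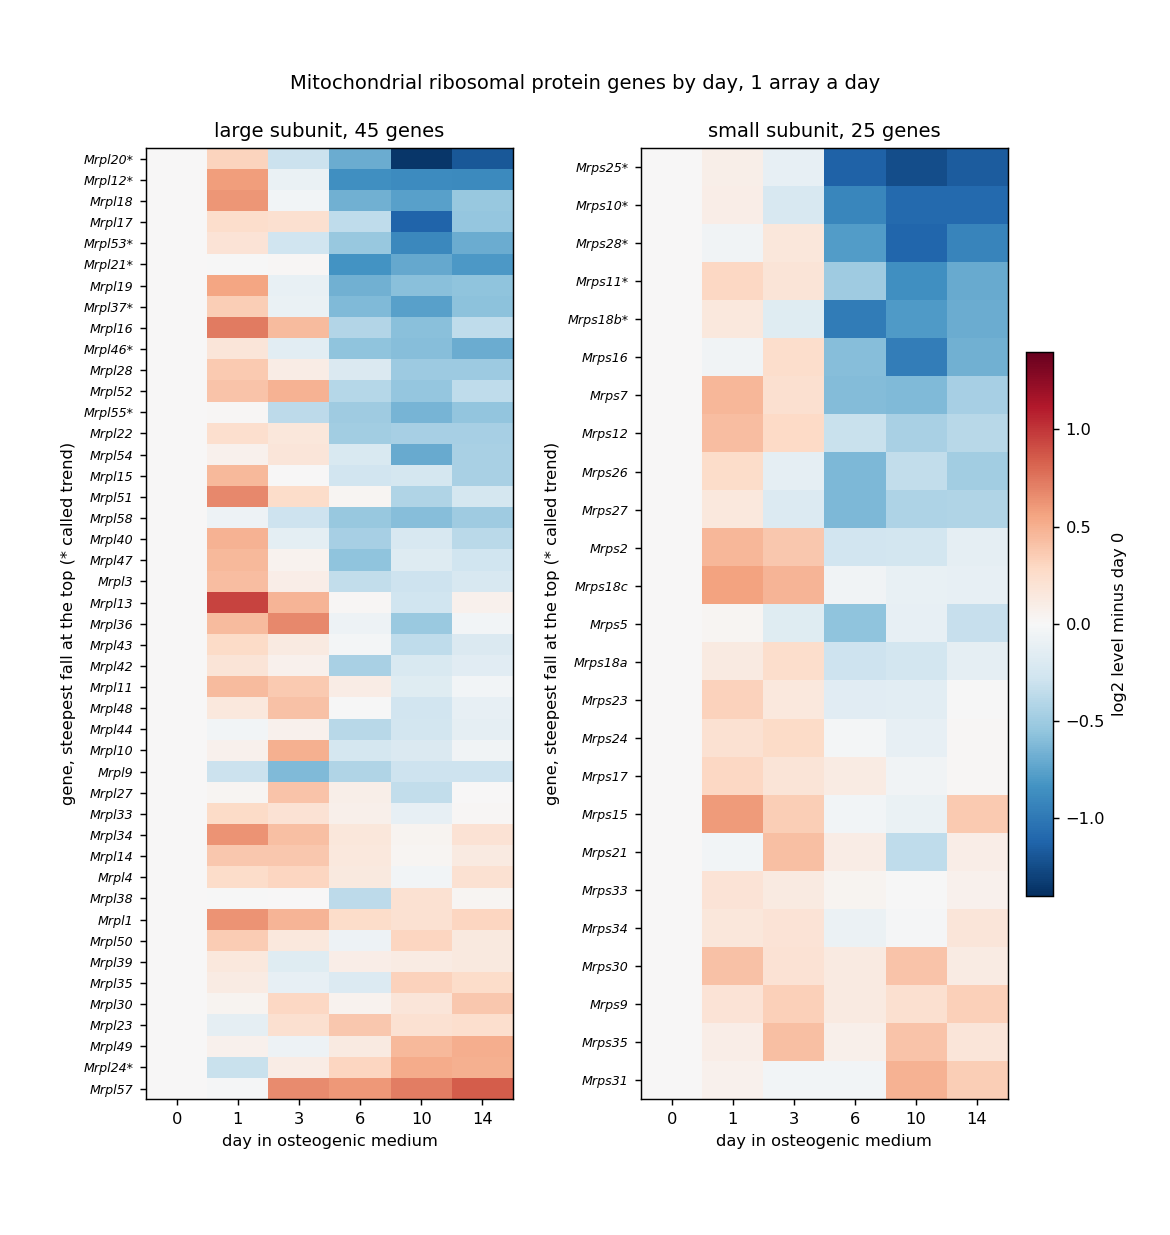
Log2 level minus day 0 (colour, red higher and blue lower) for each of the 45 large subunit and 25 small subunit genes (rows, steepest fall at the top) on each sampled day (columns, 1 array each). Red cells gather on days 1 and 3 and blue cells from day 6 on. An asterisk marks the 13 genes with a called trend.

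The trend over time was taken as the slope of the log2 level on log2(day + 1) through the 6 arrays and tested with limma over all 8881 genes at a Benjamini-Hochberg adjusted p of 0.05. With 4 residual degrees of freedom, its p-values measure scatter of single arrays about a line, not spread between cultures. By this test 12 of 70 members fell and 1 rose, while 57 did not pass. The share that fell, 17.1%, is close to the background of 17.7% of all tested genes, and the share that rose, 1.43%, compares with a background of 18.6%. Slopes below 0 were found in 55 of 70 members (78.6%) and in 50.1% of all genes. The median slope was -0.10 over the members (-0.13 in the large and -0.09 in the small subunit) and -0.000972 over all genes, with a median SE of 0.0704 per member. Under median scaling 5 of the 13 calls were kept and 8 ended (Mrpl12, Mrpl21, Mrpl37, Mrpl46, Mrpl55, Mrps11, Mrps18b and Mrps28). With signals as deposited those 8 and Mrpl24 ended and 4 were kept, and no direction turned in either setting. All 13 calls ended when the day 14 array was left out, and 2 of 13 were kept without day 10 (Mrpl20 and Mrps10). Leaving out day 1 or day 6 left 5 and 4 of 70 members fallen (background 13.4% and 12%), while leaving out day 0 gave 23 (background 17.8%). The share of all genes that fell dropped to 4.89% without day 14 and to 7.21% without day 10. It was 13.2% under median scaling and 13.7% with signals as deposited, settings in which 4 of 70 members fell.

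**Figure D3:**
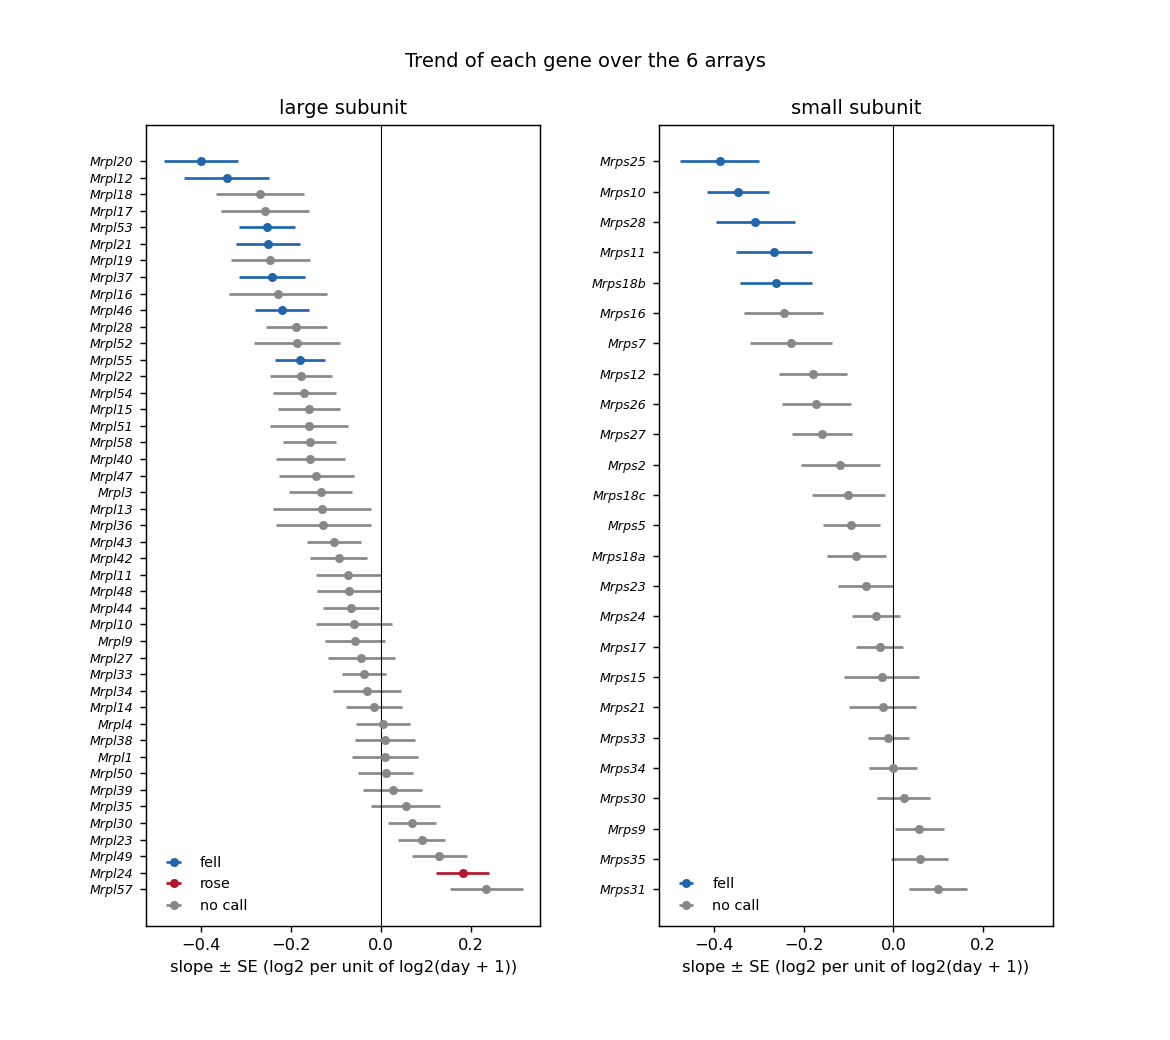
Slope ± SE of the trend (x axis, log2 units per unit of log2(day + 1)) for each gene (y axis), by subunit and coloured by call at an adjusted p of 0.05. Most points lie left of 0. The genes that fell have slopes from -0.40 to -0.18 and are interleaved with genes that did not pass, such as Mrpl18 at -0.27.

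In the large subunit 7 of 45 members fell (15.6%, background 17.7%) and 1 rose (2.22%, background 18.6%). Mrpl20 codes for the counterpart of bacterial L20, which acts early in the assembly of the bacterial large subunit. The 6 arrays gave it log2 levels of 13.07, 13.38, 12.77, 12.38, 11.71 and 11.89 in order of day. It was thus highest on day 1 and lower on every later array, 2.27-fold below day 0 on day 14, with a slope of -0.40 ± 0.0819 (adjusted p = 0.0122; 0.0573 without day 14). Mrpl53, a mitochondria-specific protein, went from 12.64 on day 0 through 12.83, 12.37, 12.11 and 11.73 to 11.95 on day 14, and fell at -0.25 ± 0.0631 (adjusted p = 0.0215; up to 0.0725 without day 10 or day 14). Its days 6 to 14 all lay below its first 3 arrays.

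Mrpl21, a counterpart of bacterial L21, had levels of 12.44, 12.44 and 12.46 on days 0, 1 and 3 and of 11.60, 11.72 and 11.64 on days 6, 10 and 14, 2 flat stretches parted by a 1.81-fold drop, with a slope of -0.25 ± 0.0714 (adjusted p = 0.0322). Mrpl37, a mitochondria-specific protein, had levels of 12.41, 12.75, 12.32, 11.79, 11.65 and 11.84 in order of day and fell at -0.24 ± 0.0733 (adjusted p = 0.0387). Mrpl55 went from 10.89 on day 0 to 10.34 on day 14 with its lowest level, 10.24, on day 10, and fell at -0.18 ± 0.0553 (adjusted p = 0.0401). The calls of Mrpl21 and Mrpl37 ended without any 1 of days 1, 6, 10 and 14 (adjusted p up to 0.117 and 0.113), and that of Mrpl55 also without day 0 (up to 0.116).

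The stalks of the large subunit, which handle translation factors and the leaving tRNA, had 1 of 4 members fallen. Mrpl12, the counterpart of the L7/L12 stalk protein that recruits elongation factors, had levels of 12.48, 13.06 and 12.39 early and of 11.62, 11.60 and 11.59 late. It was just under 1.5-fold higher on day 1 and 1.85-fold lower on day 14 than on day 0, and fell at -0.34 ± 0.0951 (adjusted p = 0.0298). Its call ended without any 1 of days 6, 10 and 14 (adjusted p up to 0.0999), under median scaling (0.0581) and with signals as deposited (0.0567). Its partners at the stalk base did not pass: Mrpl10, which anchors the stalk, had levels of 8.72, 8.78, 9.22, 8.47, 8.51 and 8.67 (slope -0.06 ± 0.0849), and Mrpl11 had 10.64, 11.08, 10.997, 10.74, 10.46 and 10.60 (-0.07 ± 0.0724). Mrpl1, of the opposite stalk, had 10.39, 11.02, 10.86, 10.64, 10.61 and 10.69, lowest on day 0 (0.01 ± 0.0731).

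Around the exit tunnel, through which the new protein leaves, 1 of 4 measured members rose and none passed downwards. Mrpl24 was the single riser of all 70 members, with levels of 12.55, 12.24, 12.65, 12.85, 13.06 and 13.05 in order of day. It was lowest on day 1, when 59 of 70 members were above day 0, and ended 1.41-fold above day 0 (slope 0.18 ± 0.0594, adjusted p = 0.0482). That call rests close to the threshold and ended without any 1 of days 1, 3, 6, 10 and 14 (adjusted p up to 0.168). Mrpl23 ran from 12.68 through 12.55, 12.90, 13.06 and 12.89 to 12.91 and did not pass (0.09 ± 0.0526). Mrpl22, at 11.95, 12.18, 12.11, 11.46, 11.48 and 11.48, and Mrpl47, at 10.56, 11.02, 10.62, 10.00, 10.38 and 10.28, each had their late arrays below their early ones and did not pass (adjusted p = 0.0825 and 0.209).

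The central protuberance, which faces the small subunit, had 1 of 5 members fallen. Mrpl46 stood at 11.70, 11.87, 11.55, 11.14, 11.10 and 10.9998 and fell at -0.22 ± 0.0595 (adjusted p = 0.0274). Its call ended without any 1 of days 1, 6, 10 and 14 (up to 0.120). Mrpl18, the counterpart of the bacterial protein that holds the 5S RNA, had levels of 9.97, 10.58, 9.93, 9.30, 9.21 and 9.44, more than 1.5-fold up from day 0 to day 1 and down by as much from day 1 to day 3 and from day 3 to day 6, and did not pass (-0.27 ± 0.0981, adjusted p = 0.0681). Mrpl40 (11.84, 12.32, 11.70, 11.37, 11.61 and 11.47) and Mrpl48 (10.96, 11.10, 11.37, 10.96, 10.69 and 10.84) did not pass either (adjusted p = 0.142 and 0.453). Mrpl38 had 11.23, 11.22, 11.23, 10.86, 11.44 and 11.26 on its brightest probe (0.01 ± 0.0669). Its second probe, detected on all arrays, had levels of 9.14, 9.38, 8.53, 7.03, 7.74 and 7.53 (-0.53 ± 0.134), so the course of Mrpl38 is not settled.

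In all, 37 large subunit members had no call, 27 with negative and 10 with positive slopes, between -0.27 and 0.23 and all with an adjusted p of at least 0.058. Mrpl17 had the lowest level of its course on day 10 (13.91, 14.15, 14.13, 13.55, 12.78 and 13.37; adjusted p = 0.0738). Mrpl16, at 10.82, 11.55, 11.27, 10.41, 10.23 and 10.47, and Mrpl19, at 10.80, 11.35, 10.69, 10.13, 10.21 and 10.23, had the same order of early over late without passing (adjusted p = 0.138 and 0.0644). Mrpl58, a peptidyl-tRNA hydrolase built into the ribosome, went 9.57, 9.498, 9.27, 9.04, 8.98 and 9.07 (-0.16 ± 0.0581, adjusted p = 0.0684). Mrpl33, a small protein bound to ribosomal RNA, was among the flattest, between 14.07 and 14.45 (-0.04 ± 0.0493). Mrpl30 (11.84, 11.87, 12.13, 11.88, 12.00 and 12.22) and Mrpl35 (8.06, 8.18, 7.95, 7.87, 8.39 and 8.32) had positive slopes without passing (adjusted p = 0.332 and 0.595). Mrpl49 had its days 6 to 14, at 10.72, 11.05 and 11.10, above its first 3 arrays, at 10.60, 10.66 and 10.53 (0.13 ± 0.0612, adjusted p = 0.133). Its other 2 detected probes had slopes of -0.24 ± 0.111 and -0.20 ± 0.0853, opposite in sign. Mrpl57 was not well above background on days 0 to 10, with detection p-values from 0.0430 on day 0 to 0.0106 on day 10, so its slope of 0.23 ± 0.0811 (adjusted p = 0.058) is limited by background.

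**Figure D4:**
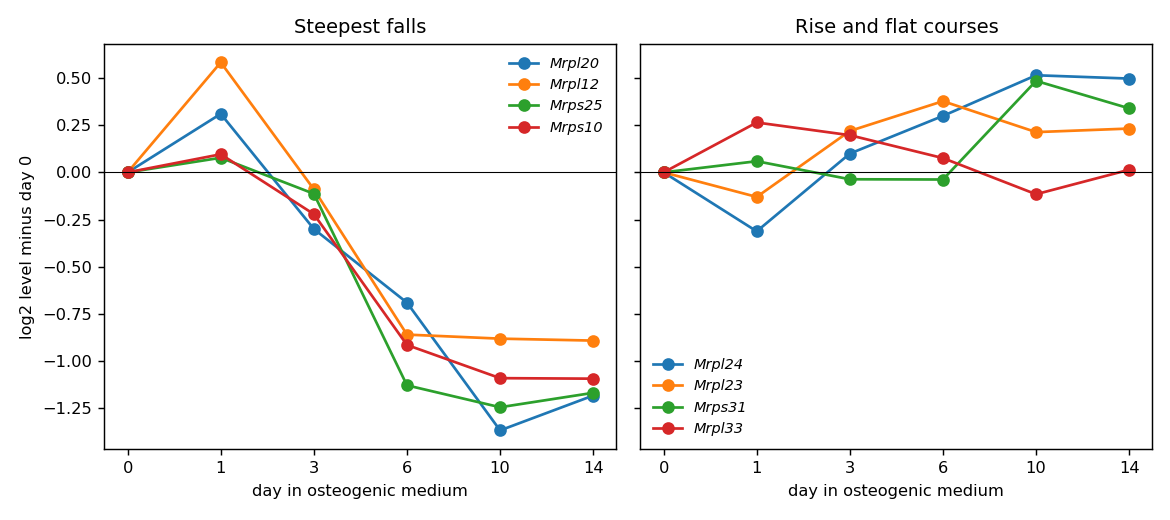
Log2 level minus day 0 (y axis) by day in osteogenic medium (x axis, sampled days evenly spaced, 1 array each) for Mrpl20, Mrpl12, Mrps25 and Mrps10 on the left and for Mrpl24, Mrpl23, Mrps31 and Mrpl33 on the right. The 4 falling genes end between 1.85-fold and 2.27-fold below day 0, and Mrpl24 ends 1.41-fold above it.

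In the small subunit 5 of 25 members fell (20%, background 17.7%) and none passed upwards. Mrps25, a mitochondria-specific protein, had log2 levels of 9.97, 10.05 and 9.86 on the first 3 arrays and of 8.84, 8.73 and 8.80 on the last 3. It changed little within either stretch and was 2.02-fold lower on day 6 than on day 3, the only member more than 2-fold apart at that step. Mrps25 fell at -0.39 ± 0.0882 (adjusted p = 0.0168), and its other 2 probes had slopes of -0.37 ± 0.0790 and -0.12 ± 0.0644, so the size differs between probes. Without day 10 it no longer passed (adjusted p = 0.0599), nor without day 14 (0.0662).

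Mrps10, the counterpart of a head protein of the bacterial small subunit, went 11.53, 11.63, 11.31, 10.62, 10.44 and 10.44, ended 2.13-fold below day 0 and fell at -0.35 ± 0.0696 (adjusted p = 0.0118, 0.0582 without day 14; -0.35 ± 0.0935 on a second probe). Mrps28 had 11.64, 11.60 and 11.80 on the first 3 arrays and 10.86, 10.53 and 10.72 on the last 3, and fell at -0.31 ± 0.0885 (adjusted p = 0.0333). Mrps11, the counterpart of a platform protein, had 11.15, 11.43, 11.33, 10.65, 10.29 and 10.45 and fell at -0.27 ± 0.0843 (adjusted p = 0.0446; -0.25 ± 0.0926 on a second probe). In each of these genes the last 3 arrays were all lower than the first 3. The calls of Mrps28 and Mrps11 ended without any 1 of days 1, 6, 10 and 14 (adjusted p up to 0.111 and 0.141). Both also ended under median scaling (0.0609 and 0.0931) and with signals as deposited (0.0518 and 0.0828).

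The paralogues Mrps18a, Mrps18b and Mrps18c code for related proteins that hold different places in the ribosome, and 1 of the 3 passed the test. Mrps18b had levels of 10.79, 10.94, 10.62, 9.81, 9.99 and 10.10 and fell at -0.26 ± 0.0805 (adjusted p = 0.0406), a call that ended without any 1 of days 0, 1, 6, 10 and 14 (up to 0.108). Mrps18a had 11.04, 11.17, 11.28, 10.75, 10.78 and 10.91 (-0.08 ± 0.0652, adjusted p = 0.345), and Mrps18c had 11.37, 11.92, 11.84, 11.31, 11.26 and 11.25 (-0.10 ± 0.0810, adjusted p = 0.358). In all 3 the last 3 arrays lay below the first 3, and the difference between their slopes was not tested. Mrps30, whose product sits in the large subunit, had levels of 12.58, 12.99, 12.78, 12.71, 12.98 and 12.69 with no such order (0.02 ± 0.0585).

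In all, 20 small subunit members had no call, 16 with negative and 4 with positive slopes. Mrps12, the counterpart of the decoding centre protein S12, went 13.19, 13.62, 13.47, 12.88, 12.74 and 12.80 without passing (adjusted p = 0.102). The positive end held Mrps31 (10.68, 10.74, 10.64, 10.64, 11.16 and 11.02; 0.10 ± 0.0642), Mrps35 (10.09, 10.18, 10.51, 10.16, 10.49 and 10.26; 0.06 ± 0.0638) and Mrps9 (10.83, 11.03, 11.17, 10.96, 11.06 and 11.17; 0.06 ± 0.0539), none of which passed. Mrps34 was flat, at 11.90, 12.05, 12.09, 11.82, 11.88 and 12.06. Mrps5, at 11.65, 11.68, 11.48, 11.08, 11.53 and 11.32, had a slope of -0.09 ± 0.0637 on its brightest probe. Its other 2 detected probes had slopes of -0.10 ± 0.0830 and 0.23 ± 0.109, so the probes differ in sign and its direction is not settled.

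Changes between successive arrays show where the courses turned. From day 0 to day 1, 59 of 69 compared members were higher, with 37 of 44 in the large and 22 of 25 in the small subunit, where 51.0% of all genes were lower. At least 1.5-fold higher were 7 members (10.1%, background 11.9%): Mrpl13, Mrpl16, Mrpl51, Mrpl34, Mrpl1, Mrpl18 and Mrps15, with Mrpl13 at 1.93-fold. That count was 26 under median scaling and 27 with signals as deposited, settings that also raised the median of all genes on day 1 by 0.18 and 0.21. The share of all genes past 1.5-fold in those settings is not given here, so these counts have no background. From day 1 to day 3, 47 of 69 were lower, and 0 were 1.5-fold higher (background 18.3%). Of the lower ones 5 moved by at least 1.5-fold (background 15.3%): Mrpl12, Mrpl19, Mrpl18, Mrpl40 and Mrpl20. From day 3 to day 6, 64 of 69 were lower, against 51.9% of all genes. The median difference of that step was -0.33 in the large and -0.44 in the small subunit, and -0.02 over all genes. All 25 small subunit members were lower on day 6 than on day 3, the smallest difference being -0.00131, and the 5 members that were higher (Mrpl9, Mrpl39, Mrpl23, Mrpl49 and Mrpl24) all belonged to the large subunit.

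At least 1.5-fold lower on day 6 than on day 3 were 19 of 69 members (27.5%, background 14.6%), 10 of 44 in the large and 9 of 25 in the small subunit. After Mrps25 the largest drops were those of Mrps28 at 1.92-fold, Mrpl52 at 1.84-fold, Mrpl16 and Mrpl21 at 1.81-fold and Mrps16 at 1.79-fold. No member was 1.5-fold higher at that step (background 15%). From day 6 to day 10, 39 of 69 were lower, Mrpl17 and Mrpl20 by at least 1.5-fold (background 11.2%), with 0 higher by that much (background 6.39%). From day 10 to day 14, 50 of 70 were higher, Mrpl17 alone by at least 1.5-fold (background 4.53%), and 0 were lower by that much (background 2.07%). Relative to day 0 the proliferation markers had medians of 0.87 on day 1, -0.47 on day 3 and -3.05 on day 6, with a median step of -2.27 from day 3 to day 6. On day 3 the median of the 70 members was still above day 0, at 0.16. The part of the proliferation markers in these values was not tested. On day 14, 11 of 70 members (15.7%, background 24.8%) were at least 1.5-fold below day 0, 5 of the large and 6 of the small subunit. That count was 6 under median scaling, where the share of all genes is not given here. Mrpl57, with a signal near background, was the only member 1.5-fold higher (1.43% of members, against 26.4% of all genes).

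**Figure D5:**
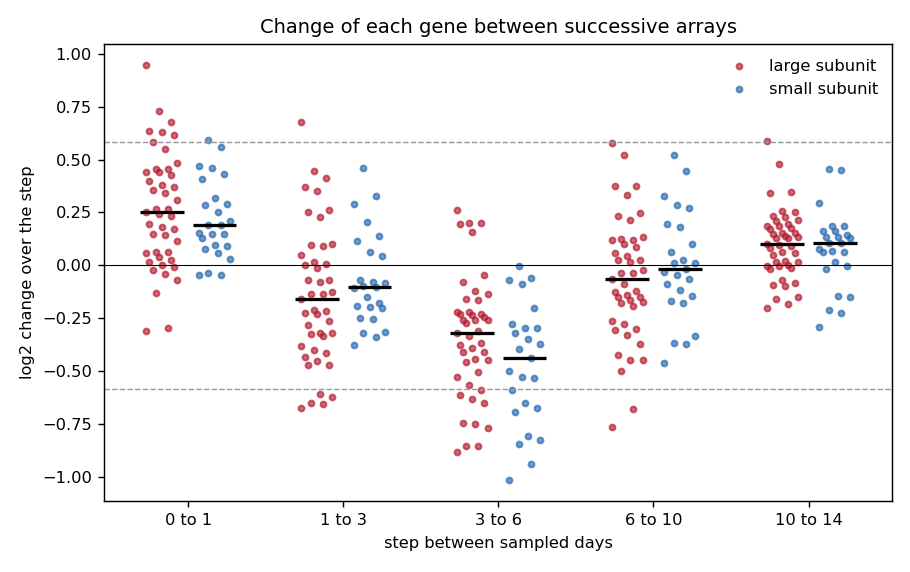
Log2 change of each gene (points) between successive arrays (x axis) for the large subunit (red) and small subunit (blue). Black bars are medians and dashed lines mark 1.5-fold. Most points lie above 0 from day 0 to day 1 and below 0 from day 3 to day 6, when all 25 small subunit genes were lower.

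The medians of the 2 subunits ran close together. The median of the large subunit minus that of the small subunit was 0.06, -0.09, 0.02, -0.02 and -0.08 on days 1, 3, 6, 10 and 14, with no consistent sign. These gaps are small beside the spread among members, whose middle 50% on day 6 ran from -0.49 to 0.08 in the large and from -0.61 to -0.02 in the small subunit. Moving Mrps18a and Mrps30 to the large subunit, where their proteins sit, gave median slopes of -0.10 in both. Split by origin, 3 of 27 large subunit proteins with a bacterial counterpart fell (11.1%) and 1 rose, and 3 of 16 mitochondria-specific ones fell (18.8%). Mrpl55, which fell, and Mrpl58, which did not pass, were in neither list. In the small subunit 3 of 14 with a bacterial counterpart (21.4%) and 2 of 9 mitochondria-specific ones (22.2%) fell, with Mrps18a and Mrps30 set apart. Over all tested genes 17.7% fell. No test of a difference between these sets was made.

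Other genes of mitochondrial translation gave calls in both directions, as did all tested genes, of which 18.6% rose and 17.7% fell. The shares below are to be read beside that background, and most lists are short. Of 4 measured ribosome subunits with other symbols (Ptcd3, Dap3, Chchd1 and Mrpl58, the last a member too), none passed, with a median slope of -0.13. Ptcd3 had the steepest slope of these, -0.20 ± 0.0822 (adjusted p = 0.0916). Of 11 translation factors 2 fell (18.2%) and 0 rose: the elongation factor Gfm1, at -0.26 ± 0.0711 (adjusted p = 0.0279), and Tsfm, which recharges the elongation factor Tu. The call of Gfm1 did not survive leaving out day 0, 1, 6, 10 or 14 (adjusted p up to 0.0826) and under median scaling (0.0502), and Guf1 had the steepest positive slope, 0.23 ± 0.125, without passing.

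Of 17 assembly and ribosomal RNA modification factors 2 rose (11.8%, background 18.6%) and 1 fell (5.88%, background 17.7%). The ribosomal RNA methyltransferase Mrm1 rose at 0.38 ± 0.0994 (adjusted p = 0.0242) and the assembly factor Mettl17 at 0.34 ± 0.0687 (adjusted p = 0.0118), and Nsun4, which methylates the small subunit RNA, fell. Of 13 genes for mitochondrial tRNA charging 1 rose (7.69%) and 2 fell (15.4%), both shares under those backgrounds. Gatb, a subunit of the enzyme that makes glutaminyl-tRNA, rose at 0.78 ± 0.0952 (adjusted p = 0.00407), 8.52-fold above day 0 on day 14, and Ears2, the glutamyl-tRNA synthetase that supplies its substrate, fell at -0.39 ± 0.0805 (adjusted p = 0.0122), as did Qrsl1, another subunit of the Gatb enzyme. Mrm1 no longer passed with day 1, 6, 10 or 14 left out (adjusted p up to 0.0891).

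Of 8 genes for mitochondrial DNA and transcription, the polymerase subunit Polg2 rose at 0.29 ± 0.0640 (adjusted p = 0.0149) and the RNA-binding Slirp fell at -0.27 ± 0.0581 (adjusted p = 0.0135). Neither passed with day 10 or day 14 left out (highest adjusted p = 0.0730 and 0.0508). Among 6 regulators of mitochondrial biogenesis both subunits of the ETS factor GABP fell: Gabpb1 at -0.54 ± 0.0823 (adjusted p = 0.00604), 4.13-fold below day 0 on day 14, and Gabpa at -0.42 ± 0.0971 (adjusted p = 0.0172; up to 0.0560 without day 10 or day 14). With the mean of its detected probes Gabpa had a slope of -0.12 (adjusted p = 0.285), so its fall rests on 1 probe. Nrf1 did not pass (-0.08 ± 0.0637). Of 14 genes for import, chaperones and the outer membrane 8 fell (57.1%, background 17.7%) and 0 rose, with a median slope of -0.26. The chaperone Hspa9 fell at -0.53 ± 0.109 (adjusted p = 0.0123; 0.0778 without day 0), and Tomm40, the import pore, at -0.49 ± 0.142 (adjusted p = 0.0339). Tomm40 was detected on 3 arrays and its call ended without any 1 of days 1, 10 and 14 (adjusted p up to 0.101), so background limits its slope.

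The 70 subunits of oxidative phosphorylation, which include proteins working beside those the mitochondrial ribosome makes, had medians below day 0 from day 6 on and close to it on day 1. Their median was 0.01, 0.15, -0.16, -0.35 and -0.21 on days 1, 3, 6, 10 and 14, with 36 of 70 above day 0 on day 1 against 59 of 70 mitochondrial ribosomal protein genes. Of them 7 fell (10%, background 17.7%) and 3 rose (4.29%, background 18.6%). In 38 (54.3%) days 6 to 14 all lay below days 0 to 3, against 57.1% of mitochondrial ribosomal protein genes and 27.6% of all genes. From day 3 to day 6, 66 of 70 were lower (median -0.30), against 64 of 69 mitochondrial ribosomal protein genes (median -0.37). The direction of that step was thus shared by both sets. At least 1.5-fold lower were 9 of 70 oxidative phosphorylation subunits (12.9%) and 19 of 69 mitochondrial ribosomal protein genes (27.5%), against a background of 14.6%. The 52 cytosolic ribosomal protein genes had medians relative to day 0 between -0.03 and 0.03 on every day, with 6 fallen (11.5%) and 0 risen. From day 3 to day 6, 37 of the 52 were lower (71.2%, against 51.9% of all genes), with a median of -0.13. At least 1.5-fold lower at that step were 8 (15.4%, background 14.6%). However, 30 of the 52 reached 50% of the highest signal, where a bead array can compress differences, which was not tested. None of these differences between gene sets was tested.

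The 70 members had 104 probes, and of 29 other detected probes in 20 genes 4 had a slope of the opposite sign, those of Mrpl38, Mrpl49 and Mrps5 given above. Among the 5 other probes of called members 0 had the opposite sign. In the authors' deposited table of signed folds over day 0, which lists all 70 representing probes, 59 were higher on day 1 and 9 lower, and 43 were lower on day 14 and 25 higher. In the authors' deposited table Mrpl20 was 2.23-fold, Mrps10 2.05-fold, Mrps25 2.02-fold and Mrpl12 1.83-fold lower on day 14, and Mrpl24 was 1.41-fold higher.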

How the data were processed

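RNA from 6 time points was hybridised as biotinylated cRNA to Illumina bead arrays, 1 per time point. The deposited intensity of each probe was not normalized between arrays, and the deposited detection p-value of each probe comes with it per the file headers. The deposited signed fold of each later array over day 0 is the authors' own. Of background subtraction, scanner software and the build behind the probes, none is stated in the labels. The columns headed C and T1 to T5 were tied to days by their values in the series' own table, with 17785 of 17785 equal on each array (tolerance 0.001), and 0 columns of values were left unused. Of 46649 entries, 6 without an ID and 30 with a repeated ID were left out.

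Signals were background-corrected from the detection p-values (limma 3.58.1 in R 4.3.3, offset 16), quantile-normalized and logged (log2). Probes with exactly 1 symbol in the platform annotation (13805) were kept, and the probe of highest mean level stood for its gene. Genes with a probe detected at p under 0.01 on at least 1 array were tested (8881 of 9751). The slope on log2(day + 1) was fitted with lmFit and eBayes and adjusted by Benjamini-Hochberg over all 8881 genes. The procedure was also run on simulated data with independent noise for each gene. That run required only mean fitted slopes near the true ones. It cannot speak for false calls from shifts shared by a whole array. Single days were set side by side by a fold of at least 1.5, with no test, among genes detected on either array. No saturation limit is recorded. Precision is limited by having 6 arrays.

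Named in full were the 5 steepest falls and rises of each subunit, the stalks, exit tunnel and central protuberance, Mrps18a to Mrps18c, Mrps30, members with a probe of opposite sign, and the 2 steepest of each other list. The other called members, genes behind small counts and the set of late days below early days were chosen after their values were seen. Members and lists were chosen with earlier results of these data known. Alternatives covered normalization, offset, detection filter, probe choice, time scale, the variance trend and each array left out.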

Additional observations from a re-analysis of the deposited data

How the results depend on the processing

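No paired analysis was possible because each time point has 1 array. The main counts were 7 fallen and 1 risen in the large subunit and 5 fallen in the small. Under median scaling, and with signals as deposited, 2 large and 2 small subunit members fell, where 13.2% and 13.7% of all genes did so. The number risen in the large subunit was 0 with signals as deposited or with the slope on day, and 2 with no detection filter (Mrpl57 added). Leaving out 1 array gave 0 to 16 fallen in the large subunit, 0 to 7 fallen in the small, 0 to 1 risen in the large, and median slopes of the large subunit from -0.21 to -0.077. The share of all genes that fell in those fits ran from 4.89% to 17.8%. Under median scaling the small subunit median was 0.42 on day 1 and, with its sign turned, 0.035 on day 14, in settings where the all-gene median moved by 0.18 and 0.12. Members at least 1.5-fold up on day 1 (7) numbered 26 under median scaling, 27 with signals as deposited (added after seeing the data), and 0 at 2-fold. Members down from day 3 to day 6 (19) numbered 1 at 2-fold, and those down on day 14 (11) numbered 3 at 2-fold and 6 under median scaling. The cause of these shifts was not tested. Shares of all genes at 2-fold, or past 1.5-fold in the other settings, are not given here, so these fold counts have no background. Among single genes, 391 comparisons outside the left-out arrays kept direction and side of the threshold, 33 kept direction but no longer passed, and 6 uncalled slopes changed sign. With 1 array left out, 211 comparisons kept both, 63 no longer passed, 5 newly passed and 9 uncalled slopes changed sign. These comparisons cover named genes, members and others, with or without a call. A gene that stayed uncalled counts as kept, so the kept numbers are not a share of calls that held. Mrps11 lost its call with the mean of its probes (adjusted p = 0.0536). Signal over background limits Mrpl57 and Tomm40.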
